A study of Mus musculus with 8 samples.

Results

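The BCL2 family decides whether a cell keeps or opens its outer mitochondrial membrane, the step that commits it to apoptosis. The 10 genes described here are 3 that protect the membrane (Bcl2l1, Mcl1 and Bcl2), 2 that form the pore (Bax and Bak1) and 5 of the BH3-only class that trigger or sensitise (Bid, Bad, Bcl2l11, Bbc3 and Pmaip1). They were chosen by name, and every probe that the array annotation gives them was taken. This gave 28 probes for 9 of the 10 genes, out of 34885 probes for 19057 genes that carry 1 symbol each. No probe was assigned to Bax, so its expression was not analysed here.

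Protective members hold the pore-forming members and the BH3-only activators in check by binding them. BH3-only proteins answer stress or loss of a survival signal by occupying the protective members or by activating the pore formers. In the red cell lineage, Bcl-xL, the product of Bcl2l1, is known as the member that keeps maturing erythroblasts alive, and its gene is a known target of the erythropoietin receptor, STAT5 and GATA1. Mcl-1 is known to be needed at earlier stages of the same lineage in the mouse.

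RNA came from CD71+Ter119+ cells sorted from bone marrow of mice 8 to 12 weeks old and was measured on Illumina bead arrays. CD71, the transferrin receptor, and Ter119 together mark red cell precursors. The groups were KAP1 KO (4 samples, coded A4, A8, A11, A13) and KAP1 WT (4 samples, coded C4, C6, C8, C9), all of a mixed strain. KAP1, encoded by Trim28, is a corepressor recruited by KRAB zinc finger proteins. The labels of all 8 samples, WT included, name the Kap-flox/stopfloxYFP line, in which a Cre recombinase would delete the gene and switch on a yellow reporter. Which promoter drove the Cre, and whether a sample was 1 mouse, was not given in the sources used here. All p-values therefore measure a spread among samples, which may in part be technical.

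Where a sentence lists 4 values of a group, they stand in the order A4, A8, A11, A13 for KO and C4, C6, C8, C9 for WT. Values are normalized intensities with a floor of 20, below which the table holds no value, and each array held between 12143 and 12199 of 45281 probes above it. A probe was tested where at least 4 of the 8 arrays lay above the floor, which left 12259, and of these 682 (5.56%) passed at an adjusted p under 0.05 in limma, with 301 higher (2.46%) and 381 lower (3.11%) in KO. Trim28 read 207, 171, 141 and 131 in KO, against 740, 395, 641 and 406 in WT. Every KO value of it was thus below every WT value. Its probe was not placed relative to the deletion. The erythroid genes Alas2 and Tfrc were bright in both groups, though not all erythroid genes were. Rhd, for one, read 20 to 74.2 over all samples, and Epb42 was at the floor. Alas2, the erythroid enzyme of heme synthesis, read 12924 to 15745 in KO and 24886 to 34336 in WT. Tfrc, which encodes CD71, read 5270 to 12050 in KO and 4025 to 14924 in WT. Sample A8 was the least like its group, with a mean Pearson r of 0.894 to the other KO samples, where each of the other 7 samples reached at least 0.934 within its group. At 190 tested probes A8 alone of the KO samples was at the floor while the other 3 were all above 100. The same count was 20 for C8 among the WT samples and 1 or 0 for each of the other 6 samples.

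One member passed the test, the survival gene Bcl2l1, and it was lower in KO cells at its brightest probe. Of the 12 tested member probes, 1 was called lower and none higher, which is 8.33% of them against 5.56% of all tested probes. At an unadjusted p under 0.05 in limma, 2 of the 12 were higher and 2 lower, where 25% of all tested probes reached that level in either direction. The 12 probes cover 7 of the genes. A further 13 member probes were at the floor on all 8 arrays and 3 were above it on fewer than 4, so the tested probes are not all of the members. Taking each gene by its tested probe of highest mean, the median log2 fold change of the 7 genes was 0.11, equal to the median of 0.11 over all 7178 genes so represented. Groups did not overlap at 3 of the 12 member probes, against 17.8% of all tested probes. At 2 of the 3 KO was higher (10.5% of all tested probes) and at 1 it was lower (7.31%).

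**Figure D1:**
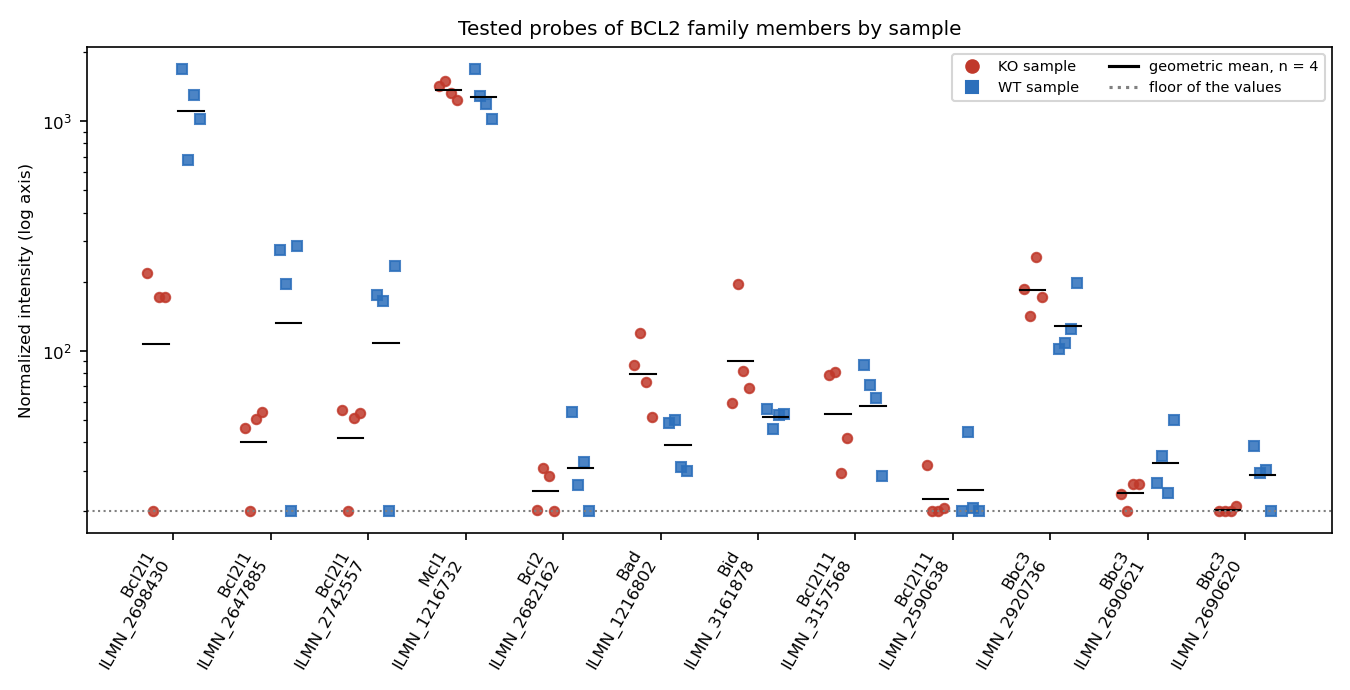
Normalized intensity on a log axis (vertical) at the 12 tested probes of BCL2 family members (horizontal), with KO samples as circles left of WT samples as squares, the geometric mean of each group of 4 as a bar and the floor of 20 dotted. At Bcl2l1 probe ILMN_2698430 the KO samples lie at 20 to 219 and the WT samples at 678 to 1686, while Mcl1 lies between 1019 and 1688 in WT with the KO samples inside that range.

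Among the protective genes, Bcl2l1 was measured by 4 probes. At the brightest, ILMN_2698430, the KO samples read 219, 20, 172 and 171, against 1686, 678, 1303 and 1026 in the WT samples. No KO value reached the lowest WT value, and A8 was at the floor. The probe is among the 190 tested probes where, of the KO samples, A8 alone was at the floor and the other 3 above 100. The means were 6.74 ± 1.62 in KO and 10.12 ± 0.56 in WT (log2, SD, n = 4 each), so KO was 10.4-fold lower (log2 fold change -3.38 with a 95% interval of -4.98 to -1.79, adjusted p = 0.0295 in limma). The authors' deposited table gives this probe a fold of -10.4, with an unadjusted p of 0.0195 from an unequal-variance test on the same values. After Benjamini-Hochberg adjustment over the tested probes, that p was 0.172 and did not pass. Without A8 the difference was 5.97-fold (adjusted p = 0.00451 in limma), smaller and with an SE of 0.31 in place of 0.71 on the log2 scale.

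The other Bcl2l1 probes were dimmer and less even. ILMN_2647885 read 46.2, 20, 50.4 and 53.8 in KO, against 275, 195, 20 and 287 in WT. ILMN_2742557 read 55.3, 20, 51 and 53.3 in the KO samples, against 175, 164, 20 and 233 in the WT samples. At both probes C8 was at the floor, although it was the next to highest WT sample at the brightest probe, and the other 3 WT samples were above all KO samples. Both are among the 20 tested probes where, of the WT samples, C8 alone was at the floor and the other 3 above 100. With all 8 samples neither passed (3.33-fold lower, adjusted p = 0.216, and 2.58-fold lower, adjusted p = 0.278, both in limma). Without C8 both passed (6.25-fold, adjusted p = 0.0129, and 4.53-fold, adjusted p = 0.0252, in limma), while ILMN_2698430 then did not (9.89-fold, adjusted p = 0.0719). The brightest probe kept its call without A4, A8 or C6 and lost it without A11, A13, C4, C8 or C9 (adjusted p between 0.0536 and 0.0922 in limma), with a log2 fold change between -3.73 and -2.58 in all 8 of these fits. The fourth probe, ILMN_1255430, was at the floor on every array.

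Bcl2l1 has 3 start sites in the RefSeq promoter table of mouse build GRCm38.p6, and the stretch before the most downstream of them is shown because it held the single match to a GATA motif among the member promoters searched. The sequences of 15 promoters of 9 members, Bax included and Pmaip1 not, were searched over the 250 bases before each start site, on both strands, for AGATAA, a form of the site that GATA factors bind, and for TTCNNNGAA, the spaced repeat that STAT factors bind, motifs that could share no more than an end letter. AGATAA was found in 1 of the 15 promoters, beginning 41 bases before the start, against 9.99% of 32851 promoters of the table, and TTCNNNGAA in none, against 7.02%. A match is a run of letters only, and its absence says only that these letters are not in this window. In the sequence, at chr2:152828490-152828739 on the minus strand, capitals mark the AGATAA match.
Bcl2l1 promoter: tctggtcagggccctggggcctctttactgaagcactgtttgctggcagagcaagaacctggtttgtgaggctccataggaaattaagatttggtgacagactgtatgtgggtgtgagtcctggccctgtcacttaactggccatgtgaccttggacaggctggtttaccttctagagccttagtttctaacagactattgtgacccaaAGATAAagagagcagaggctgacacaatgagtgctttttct

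Mcl1, whose short-lived product guards the membrane in many blood cells, did not pass and lay in a narrow band. It read 1429, 1493, 1331 and 1238 in KO, against 1688, 1283, 1189 and 1019 in WT. All 4 KO values lay within the range of the WT values. The ratio of KO to WT was 1.08 with a 95% interval of 0.788 to 1.47 (adjusted p = 0.77 in limma), an interval that leaves room for changes of either sign within it but not for one of the size seen at Bcl2l1.

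Bcl2, the founding member, gave little signal. Of its 9 probes 6 were at the floor on every array and 2 were above it in 2 KO samples at most, with 26.9 the highest value there. The tested probe, ILMN_2682162, read 20.2, 30.7, 28.3 and 20 in KO, against 53.9, 25.9, 32.7 and 20 in WT. The groups overlapped, with 1 sample of each at the floor (log2 fold change -0.34 with a 95% interval of -1.06 to 0.37, adjusted p = 0.524 in limma). A level this close to the floor allows no statement on whether Bcl2 was made at all.

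The pore-forming gene Bak1 was at the floor on all 8 arrays at its 1 probe, so its level in KO and WT cells is bounded by the floor and was not compared.

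**Figure D2:**
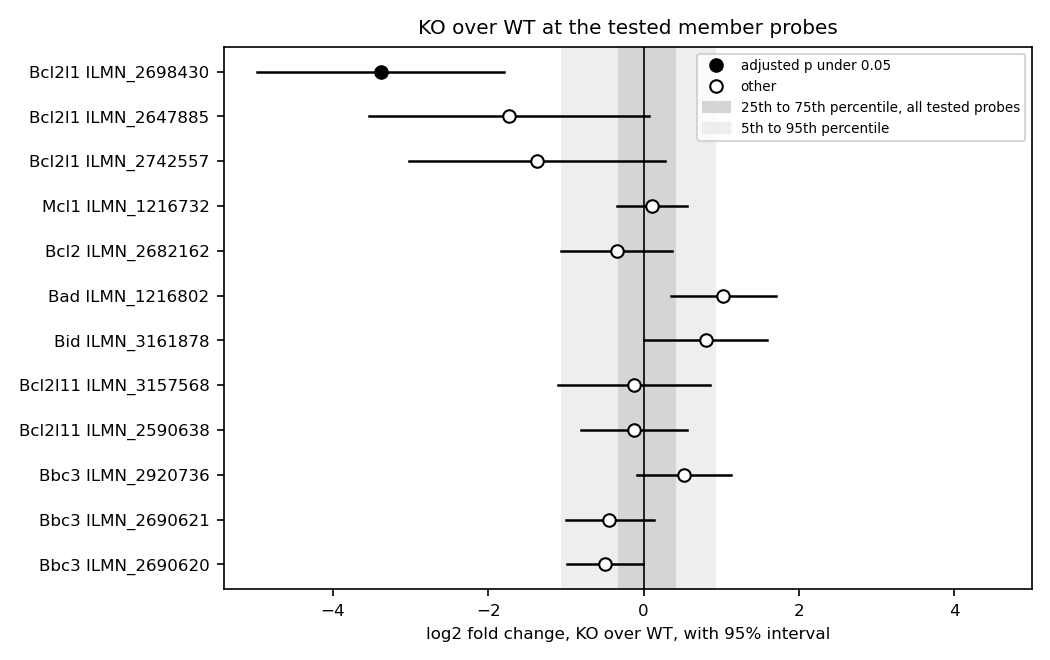
Log2 fold change of KO over WT (horizontal) with its 95% interval at the 12 tested member probes (vertical), filled where the adjusted p was under 0.05, over shaded bands from the 25th to the 75th and from the 5th to the 95th percentile of all 12259 tested probes. Bcl2l1 probe ILMN_2698430 is at -3.38 and far left of the 5th percentile of -1.05, and Bad at 1.02 is just right of the 95th percentile of 0.92.

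Of the BH3-only genes, Bad and Bid had no overlap between the groups, with KO above WT, and neither passed the test. Bad encodes a protein that binds Bcl-xL and Bcl-2 unless growth factor signalling phosphorylates it. It read 86.4, 119, 72.7 and 51.3 in KO, against 48.5, 49.9, 31 and 30 in WT. The closest pair was A13 and C6. Bad averaged 6.30 ± 0.51 in KO and 5.27 ± 0.40 in WT (log2, SD, n = 4 each), a 2.03-fold difference with a 95% interval of 1.27 to 3.25 (unadjusted p = 0.00746, adjusted p = 0.081 in limma). It stayed short of the threshold in all 8 leave-one-out fits (adjusted p between 0.0642 and 0.185), and was 1.77-fold higher without A8.

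Bid, which links death receptors to the mitochondrion once cleaved by caspase-8, read 59.4, 196, 81.1 and 68.8 at probe ILMN_3161878 in the KO samples. Its WT values were 55.6, 45.5, 52.6 and 52.8. Sample A8 was far above the other KO samples, and A4 lay just above C4. The ratio was 1.74 with a 95% interval of 1.01 to 3.01 (adjusted p = 0.194 in limma), and 1.34 without A8. Its other probe was at the floor in all KO samples and at 21 and 32.1 in WT samples C4 and C8.

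Bcl2l11 encodes Bim, which binds every protective member, and its groups overlapped throughout. Probe ILMN_3157568 read 78.5, 81, 29.2 and 41.5 in KO, against 86.2, 71.1, 62.3 and 28.5 in WT. The 2 groups spanned nearly the same range (log2 fold change -0.12 with a 95% interval of -1.10 to 0.85, adjusted p = 0.876 in limma). The second tested probe, ILMN_2590638, was at most 31.7 in KO and 44.4 in WT, and 2 more were at the floor on every array.

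Bbc3 encodes Puma, a BH3-only activator induced by DNA damage, and its probes differed in direction. At ILMN_2920736 the KO samples read 186, 141, 255 and 172, against 102, 108, 124 and 197 in the WT samples. All KO values exceeded 3 of the WT values, and C9 lay among the KO values (1.44-fold higher, 95% interval 0.943 to 2.19, adjusted p = 0.262 in limma). The dimmer ILMN_2690621 read 20 to 26.3 in KO and 24 to 49.6 in WT (log2 fold change -0.44, adjusted p = 0.315). ILMN_2690620 was above the floor in 1 KO sample, at 21, and in 3 WT samples, at up to 38.5 (log2 fold change -0.50, adjusted p = 0.191). No direction can be given for Bbc3 from probes that lie on opposite sides of 0 and of which none passed. Pmaip1, which encodes Noxa, a selective partner of Mcl-1, was at the floor at all 3 of its probes on all 8 arrays.

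The remaining BCL2 family genes, taken from a list of 18 with 7 tested, held 1 gene lower in KO, none higher and 6 that did not pass (of all 7178 genes 5.64% passed, 2.4% higher and 3.25% lower). The lower one was Bnip3l, a distant relative that serves as the receptor for clearing mitochondria from maturing red cells. It read 3241, 3728, 4784 and 3981 in KO, against 19066, 13043, 17401 and 15490 in WT. The lowest WT value was thus well above the highest KO value (4.13-fold, adjusted p = 0.00131 in limma), and the call held in all 8 leave-one-out fits. The Bcl2a1 copies, protective genes of white blood cells so alike that probes may not tell them apart, did not pass (Bcl2a1b, log2 fold change -0.43, adjusted p = 0.279, and Bcl2a1d, -0.28, adjusted p = 0.475). The protective gene Bcl2l2, with 2 KO and 3 WT samples above the floor, had a log2 fold change of -0.78 (adjusted p = 0.312). The list had a median log2 fold change of -0.28, and its other 11 genes were at the floor, too dim to test or not analysed here.

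Downstream of the mitochondrion, 15 of 22 listed genes of caspases, their activators and inhibitors and the outer membrane channels were tested. One was higher, none lower and 14 did not pass, with a median log2 fold change of 0.25. At 5 of the 15 every KO sample was above every WT sample, as at 11.3% of all 7178 genes, where groups of either direction did not overlap at 18.7%. Diablo encodes Smac, which leaves opened mitochondria and blocks the caspase inhibitors. It read 84, 161, 103 and 137 in KO, against 23.7, 48.4, 20 and 38.8 in WT. All KO values were above all WT values (3.82-fold, adjusted p = 0.0132 in limma), and the call was lost only without C4 (adjusted p = 0.05 after rounding). Vdac1, a channel of the outer membrane, read 1715 to 2622 in KO and 1130 to 1246 in WT (1.69-fold, adjusted p = 0.0508). Cycs, which encodes cytochrome c, read 443 to 524 in KO and 307 to 390 in WT (1.36-fold, adjusted p = 0.149). The apoptosome gene Apaf1 and its caspase gene Casp9 had log2 fold changes of 0.12 and 0.18 (adjusted p = 0.764 and 0.528).

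Among 30 listed regulators and binding partners of BCL2 proteins, 22 were tested, with 1 lower, none higher and a median log2 fold change of 0.03. At an unadjusted p under 0.05 in limma, 5 were higher and 2 lower, Itpr2 and Becn1. Becn1 (2.53-fold lower, adjusted p = 0.0574 in limma) did not pass, and its groups overlapped. Itpr2, a calcium release channel of the endoplasmic reticulum whose kind BCL2 proteins bind, read 90.7, 117, 57.8 and 71.3 in KO, against 273, 207, 182 and 139 in WT. The groups did not overlap (2.39-fold lower, adjusted p = 0.0389 in limma), yet the call held in only 1 of 8 leave-one-out fits, that without A8 (adjusted p up to 0.112 in the others). The known upstream factors of Bcl2l1 did not pass. Gata1 had a log2 fold change of 0.11 (adjusted p = 0.811), Stat5a 0.07 (0.914), Jak2 -0.30 (0.422) and Epor -0.03 (0.94), and Stat5b was at the floor on all arrays. Stat5a was close to the floor, at 25.1 to 42.9 in KO and 20 to 50.9 in WT, with only 2 WT samples above it. Its fold change is therefore limited by the floor. Foxo3, a known activator of Bcl2l11, had a log2 fold change of -0.51 (adjusted p = 0.333).

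**Figure D3:**
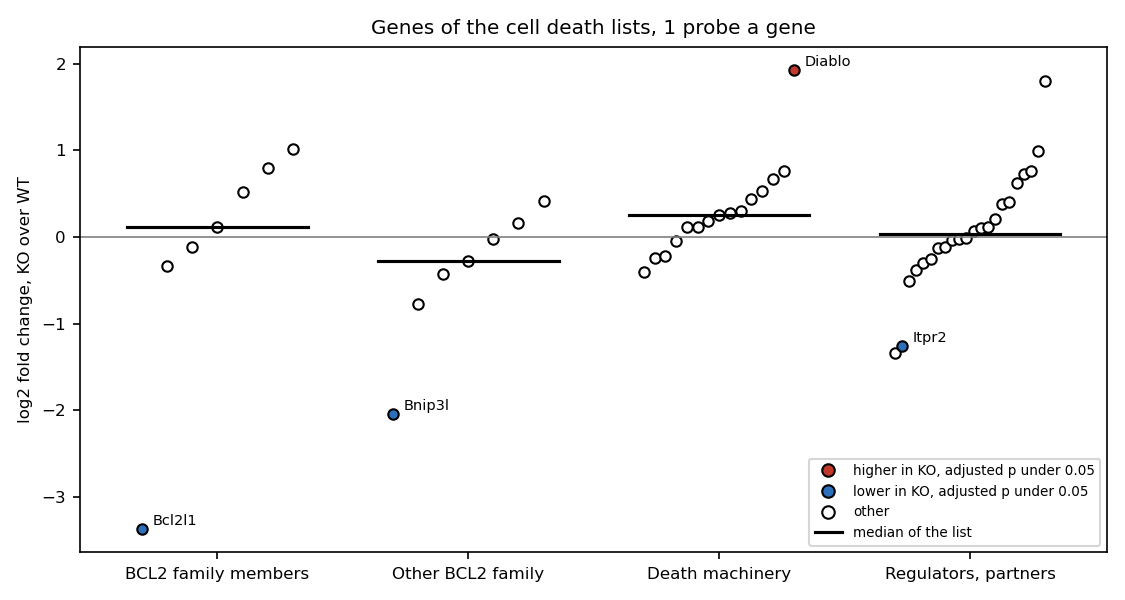
Log2 fold change of KO over WT (vertical) of each tested gene of the members and of 3 lists of related genes (horizontal), 1 point a gene by its tested probe of highest mean, filled where the adjusted p was under 0.05, with the median of each list as a bar. Bcl2l1, Bnip3l and Itpr2 are the filled points below 0 and Diablo is the filled point above 0.

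Some genes of late erythroblasts were lower in KO together with Bcl2l1, and their part in its difference was not tested. Of 21 tested genes of a list of 27, 5 were lower in KO, none higher and 16 did not pass, with a median log2 fold change of -0.82, and Epb42 was at the floor. The median equals the value of Sptb and Car2, where A8 read 2164 and 640, below the other KO samples (5003 to 6222 and 8466 to 9664). At 9 of the 21 every KO sample was below every WT sample (7.38% of all genes). The 5 were Bnip3l, which belongs to both lists, Xpo7, a nuclear transport gene of late red cell maturation (log2 fold change -2.55, adjusted p = 0.00807), Alas2 (-1.05, 0.0132), Tmcc2 (-1.84, 0.0161) and the globin gene Hbb-b2 (-2.05, 0.0405). With 1 sample left out, Bnip3l and Xpo7 passed in all 8 fits, Alas2 lost its call without A13, Tmcc2 lost it without A13 or C4, and Hbb-b2 kept it only without A11 or C6. The list's mean per sample was 11.10, 9.84, 11.20 and 11.11 in KO, against 11.93, 11.45, 11.98 and 11.85 in WT (log2 intensity). A8 was the lowest sample here, as at Bcl2l1 probe ILMN_2698430. Its mean was low through a few genes, among them Fech (20 in A8, 1293 to 1413 in the other KO samples) and Ube2l6 (20 in A8, 2607 to 3565 in the others), while Alas2 (15184) and Bnip3l (3728) in A8 lay within the range of the other KO samples. Bcl2l1 ILMN_2698430 and the probes of Fech and Ube2l6 are all among the 190 where A8 alone of the KO samples was at the floor. The second probe of Xpo7 had the same pattern as the dim Bcl2l1 probes, with A8 and C8 at the floor and the other samples at 83.2 to 91.9 in KO and 256 to 331 in WT. In these bulk samples, fewer late erythroblasts in the sort and less Bcl2l1 RNA per cell cannot be told apart.

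Early erythroid genes, 11 tested of 15, had a median log2 fold change of 0.28 and none passed with all 8 samples. Kit, the stem cell factor receptor, which is also among the 30 regulators, read 101, 296, 42 and 40.9 in KO, against 41.3, 21.1, 20 and 20 in WT (adjusted p = 0.111), with A8 the highest. Gata2 was above the floor in 3 KO samples, at up to 83.8, and in 1 WT sample, at 20.4 (adjusted p = 0.105), and it passed only in the leave-one-out fit without A13 (adjusted p = 0.0216). Myc, Nmt2 and Cdk6 were at the floor.

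**Figure D4:**
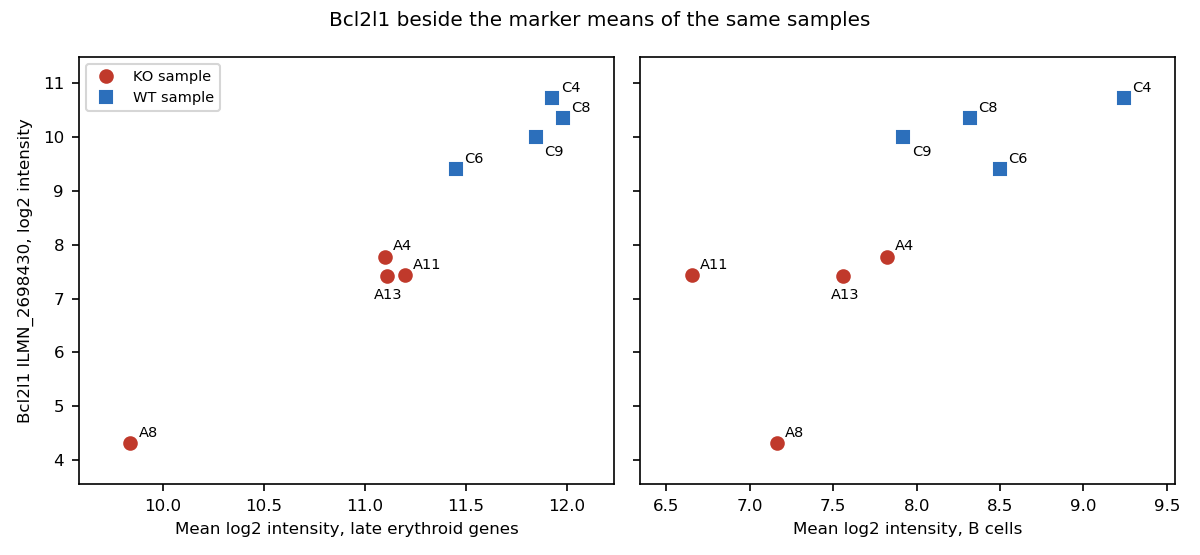
Log2 intensity of Bcl2l1 probe ILMN_2698430 (vertical) beside the mean log2 intensity of late erythroid genes (left panel, horizontal) and of B-cell genes (right panel, horizontal) in the same samples, with KO samples as circles and WT samples as squares. The late erythroid mean lies at 9.84 to 11.20 in KO against 11.45 to 11.98 in WT, and the B-cell mean at 6.65 to 7.82 in KO against 7.92 to 9.24 in WT.

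Some markers of other marrow cells also differed between the groups, and their part in the Bcl2l1 difference was likewise not tested. All 14 tested B-cell genes of 18 had log2 fold changes below 0, with a mean per sample of 6.65 to 7.82 in KO and 7.92 to 9.24 in WT and Pax5 at the floor. At an unadjusted p under 0.05 in limma, 12 of the 14 were lower and 0 higher. H2-Aa (2.04-fold) and Ly6d (2.88-fold) passed as lower with all samples, and with 1 sample left out H2-Aa passed only without A13 or C8 and Ly6d only without A4. Of 7 tested T and NK cell genes, Cd2 was lower (3.26-fold) and Cd8a was at the floor, with means of 4.94 to 5.86 in KO and 4.75 to 5.94 in WT. Of these 7, 3 had log2 fold changes above 0 and 4 below. At an unadjusted p under 0.05 in limma, 2 were lower and 2 higher. The higher genes, Thy1 (2.33-fold, adjusted p = 0.149) and Nkg7 (3.11-fold, adjusted p = 0.177), did not pass. Megakaryocyte and platelet genes, which belong to cells that also rely on Bcl-xL, had means of 6.35 to 6.45 in KO and 5.20 to 5.51 in WT. Of the 6 tested, Tubb1 passed, at least 11.6-fold higher against WT samples all at the floor, and Gp1bb and Ppbp were at the floor. The means rest in part on Tubb1 (log2 fold change 3.53), and the other 5 did not pass. Of the 6, 5 had log2 fold changes above 0, down to 0.14 at Gp9, and 1 below, Vwf (-0.05). In WT, Gp5 was at the floor and Pf4 at 20.2 at most. Of 6 genes tested for mast cells and other granule cells, Cpa3 (6.18-fold, a value set in part by the floor, where 3 of the 4 WT samples lay) and Fcer1a (3.16-fold) were higher and Prss34 (3.91-fold) lower, with means of 7.20 to 8.02 in KO and 6.19 to 7.25 in WT, and Ms4a2 and Tpsb2 at the floor. Fcer1a lost its call without A13, and Prss34 without A13, C4 or C9. None of 15 neutrophil and myeloid genes (means 9.71 to 10.90 in KO and 9.18 to 10.66 in WT, Mmp8 and Itgam at the floor) or of 10 macrophage genes (6.03 to 7.19 in KO and 6.30 to 6.89 in WT, Siglec1 at the floor) passed in limma at its probe of highest mean. At an unadjusted p under 0.05 there were 3 of the neutrophil and myeloid genes and 0 of the macrophage genes. S100a9 (2.10-fold lower, adjusted p = 0.0882) and Ms4a3 (3.63-fold higher, adjusted p = 0.16) did not pass among the first, nor did Marco (adjusted p = 0.29) and Vcam1 (0.405) among the macrophage genes. A dimmer probe of Ms4a3, ILMN_1250529, was higher, with 40.8 to 64.8 in KO and 20 to 27.6 in WT (adjusted p = 0.0208 in limma, 3 WT samples at the floor).

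The 5 genes whose intensities followed Bcl2l1 probe ILMN_2698430 most closely over the 8 samples were Fam117a (Pearson r 0.991), Wwp2 (0.983), 1300017J02Rik (0.980), Klf16 (0.977) and Denn2b (0.977). These values describe 8 samples in 2 groups with A8 far below the rest, and without A8 they were 0.977, 0.982, 0.967, 0.940 and 0.950 over 7 samples. Fam117a spanned a much smaller range than Bcl2l1, with 1679 to 2654 in KO and 3328 to 3864 in WT (1.59-fold lower, adjusted p = 0.0833). Klf16 (3.88-fold, adjusted p = 0.0429) and Denn2b (6.01-fold, adjusted p = 0.0253) passed as lower in limma. Choosing genes that follow a probe lower in KO favours genes lower in KO, so these calls add no separate result.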

How the data were processed

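The 8 arrays were grouped by their titles, and 4 KO were compared with 4 WT samples. The authors normalized the deposited intensity values, which have a floor of 20; the submitters' processing notes name BeadStudio 3.1.3, with settings not given in the sources used here. A deposited table gives the authors' signed fold, used here as a score, and a p-value, which equal the ratio of geometric means and an unequal-variance test on log2 values at all 12259 tested probes (relative tolerance 0.001). Another table, of signals before normalization, has 8 sample columns that match no label and were not used.

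Intensities were taken to log2. Probes above the floor on at least 4 of 8 arrays were fitted with lmFit and eBayes in limma 3.58.1 (R 4.3.3), with no covariate and Benjamini-Hochberg adjustment over all tested probes, threshold 0.05. The number of arrays limits the precision. The fit was tested on simulated data. Probes were named by the platform annotation. A gene in a list is its tested probe of highest mean. Levels of different probes are not comparable. All probes of the 10 members are given. So are up to 6 called genes per list (the 2 of smallest p where none passed) and the 5 genes most like Bcl2l1. Further genes are named for their role or their values, after those values were seen. The members and lists were chosen with earlier results of these data known. Alternatives covered the filter, the floor, the variance prior, array weights, a further normalization, the authors' p-values and each sample left out. Promoter sequences are from RefSeq (GRCm38.p6).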

Additional observations from a re-analysis of the deposited data

Results flagged for a closer look

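Samples that stood far from the other 3 of their group were found in 15 of 87 groups of 4 examined, where chance would flag about 1 group in 20. That rate does not apply where the other 3 samples were tied at the floor, as at Bbc3 ILMN_2690620, Gata2 and Cpa3, or close to it, as at Bcl2l11 ILMN_2590638. Of the 8 at member probes, 5 were of Bcl2l1, with A8 at 20 at all 3 tested probes and C8 at 20 at ILMN_2647885 and ILMN_2742557. The other member probes were Bcl2l11 ILMN_2590638, with A4 at 31.7 in KO and C6 at 44.4 in WT, and Bbc3 ILMN_2690620, with A13 at 21 while the other KO samples were at the floor. Among related genes these were Kit (C4 at 41.3) and Gata2 (C9 at 20.4), among B and T cell genes Ly6d (C4 at 852) and Cd2 (C4 at 206), and among mast cell genes Cpa3 (C6 at 51.6). The mean of late erythroid genes was 9.84 in A8, and that of neutrophil and myeloid genes 9.18 in C8.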

How the results depend on the processing

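The Bcl2l1 probe ILMN_2698430 kept a negative log2 fold change under every alternative in which it was tested. Testing all probes above the floor on at least 1 array left it at -3.38 but past the threshold no longer (adjusted p = 0.0596), as did the authors' unequal-variance p-values after adjustment (-3.38, adjusted p = 0.172), so 0 member probes were called lower in both, and 0 where all 8 arrays had to be above the floor, a filter that leaves Bcl2l1 out since A8 is at the floor. With a trend or robust prior, array weights, a floor of 40 or cyclic loess its adjusted p was between 0.00566 and 0.0318. With 1 sample left out its log2 fold change lay between -3.73 and -2.58 and member probes called lower between 0 and 2. No member probe was called higher under any alternative. Over all tested probes 91 to 557 were called higher and 162 to 586 lower with 1 sample left out, 836 and 702 with array weights, 94 and 114 by the authors' p-values, and 171 higher with all 8 arrays above the floor. Signs turned at Bcl2l11 ILMN_3157568 (0.16 without A11, 0.07 without C4, -0.46 at the other end), Bcl2l11 ILMN_2590638 (0.16 without C6, -0.28 at the other end) and Mcl1 (-0.0012 without C9, 0.24 at the other end), and the cause was not tested. Correction of the background from signals before normalization and a slide block were not run, since those columns match no label and no file names a slide. Cyclic loess moved the median log2 fold change of all tested probes to 0.01, against 0.09. The floor limits Bcl2, Bak1, Pmaip1 and the dim probes of Bcl2l11 and Bbc3.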
